A study of Mus musculus with 12 samples.

Results

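Mitochondrial ribosomal protein genes were followed in the hippocampus of mice exposed to a mixture of Gulf War toxicants. They were taken by symbol, as Mrpl or Mrps followed by a number with pseudogenes left out, which gave 78 genes of the 41743 in the deposited table, 49 of the large and 29 of the small subunit by symbol. All 78 passed the filter on low values, a mean of at least 0.5 RPKM (reads scaled to the length of a gene's exons and to the depth of the library), as did 13493 genes in all. The toxicant group (6 libraries) was injected under the skin on every weekday for 2 weeks with a mixture of pyridostigmine bromide at 2.5 mg/kg, the insecticide chlorpyrifos at 12.5 mg/kg and DEET at 7.5 mg/kg, and the control group (6 deposited libraries) received vehicle. Both groups were male C57Bl/6 mice 12 weeks old, and the hippocampi were taken when the exposure ended. Pyridostigmine bromide is a cholinesterase inhibitor used as a pretreatment against nerve agents, chlorpyrifos is an organophosphate that inhibits the same enzyme and DEET is an insect repellent. The design text describes different mice in each group. Control 4 and control 5 held the same value in every gene. They were therefore counted as 1 sample, control 4-5, which left 6 toxicant and 5 control libraries.

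Mitochondria make the few hydrophobic subunits of the respiratory chain that their own DNA encodes on ribosomes of their own. The ribosomal RNA of these particles is mitochondrial, while their proteins are encoded in the nucleus, made in the cytosol and imported. Some of these proteins have a homologue in the bacterial ribosome, and others were added in the mitochondrial lineage. Inherited defects in several of them impair oxidative phosphorylation in humans, often with brain or heart disease. Neurons, which cover most of their energy need by oxidative phosphorylation, depend on this supply.

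The reads behind the RPKM scale came to 24.7 M ± 2.68 M (SD, n = 6) in toxicant and 29.6 M ± 3.61 M (SD, n = 5) in control libraries. Of these, 80.8% ± 2.68 (SD, n = 6) lay on genes of the table in toxicant and 85.4% ± 4.58 (SD, n = 5) in control libraries, with a 95% Wilson interval of at most ±0.017 percentage points in a library from counting error. Markers were fixed for the cell types a hippocampal dissection can hold, with striatum and thalamus among them. None of the 35 markers was at 0 in any library. Striatal and thalamic markers were thus above 0 as well, and a value above 0 does not tell one brain region from another. The tissue label was not tested by this. The summed RPKM of 3 oligodendrocyte markers was 196 to 262 in toxicant and 283 to 394 in control libraries, and that of 3 microglial markers was 20.9 to 26.0 in toxicant and 26.9 to 31.7 in control libraries, both without overlap. For 4 pan-neuronal markers the sums were 420 to 530 in toxicant and 462 to 539 in control libraries, and for 4 dentate granule cell markers 56.5 to 75.4 and 59.97 to 85.3, with overlap in both. The sums of CA1, CA3, astrocyte, endothelial, choroid plexus, striatal, thalamic and red cell markers overlapped as well. Of all single genes tested, 2.03% had every toxicant library below the lowest control. Choroid plexus markers varied widely in both groups, at 14.3 to 1779 RPKM in toxicant and 15.6 to 2856 RPKM in control libraries. In whole tissue, fewer cells of a type and less RNA per cell cannot be told apart, and the part of these cell types in the values below was not tested.

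Levels per kilobase of exon spanned more than an order of magnitude among the 78 genes, with mean RPKM over the 11 libraries of 1.39 to 35.5 and a median of 7.88, beside 4.50 over all genes tested. The median was 8.40 RPKM for the large and 7.50 RPKM for the small subunit genes. A gene had on average 170 to 1291 reads in a library (median 532), and in 76 of 78 members the coefficient of variation between libraries was above that of counting alone, in the toxicant as in the control group. Together the genes took a median of 0.196% of the reads on genes in a library. They were short, with a median summed exon length of 2394 bases beside 4306.5 for all genes tested. Their GC content had the same centre as the rest, at 49.8% beside 50%.

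Mrpl41, a large-subunit protein without a bacterial homologue, had the highest level of the 78, with 28.5 to 38.5 RPKM in toxicant and 30.9 to 45.7 RPKM in control libraries. Mrps21, the counterpart of the bacterial small-subunit protein S21, followed at 23.8 to 34.9 and 26.6 to 40.6 RPKM. Mrps12, which lies at the decoding site, came next at 19.9 to 27.0 in toxicant and 17.7 to 35.2 RPKM in control libraries. The neighbours in this order overlapped within each group. At the other end, Mrps35, Mrpl33 and Mrpl47 had means of 1.39, 1.79 and 1.90 RPKM. All 3 have long annotated exons, and exon length and level per kilobase ran against each other across the 78 genes (Spearman rho = -0.83, genes as points, which share all libraries, and length itself is the divisor of RPKM).

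**Figure D1:**
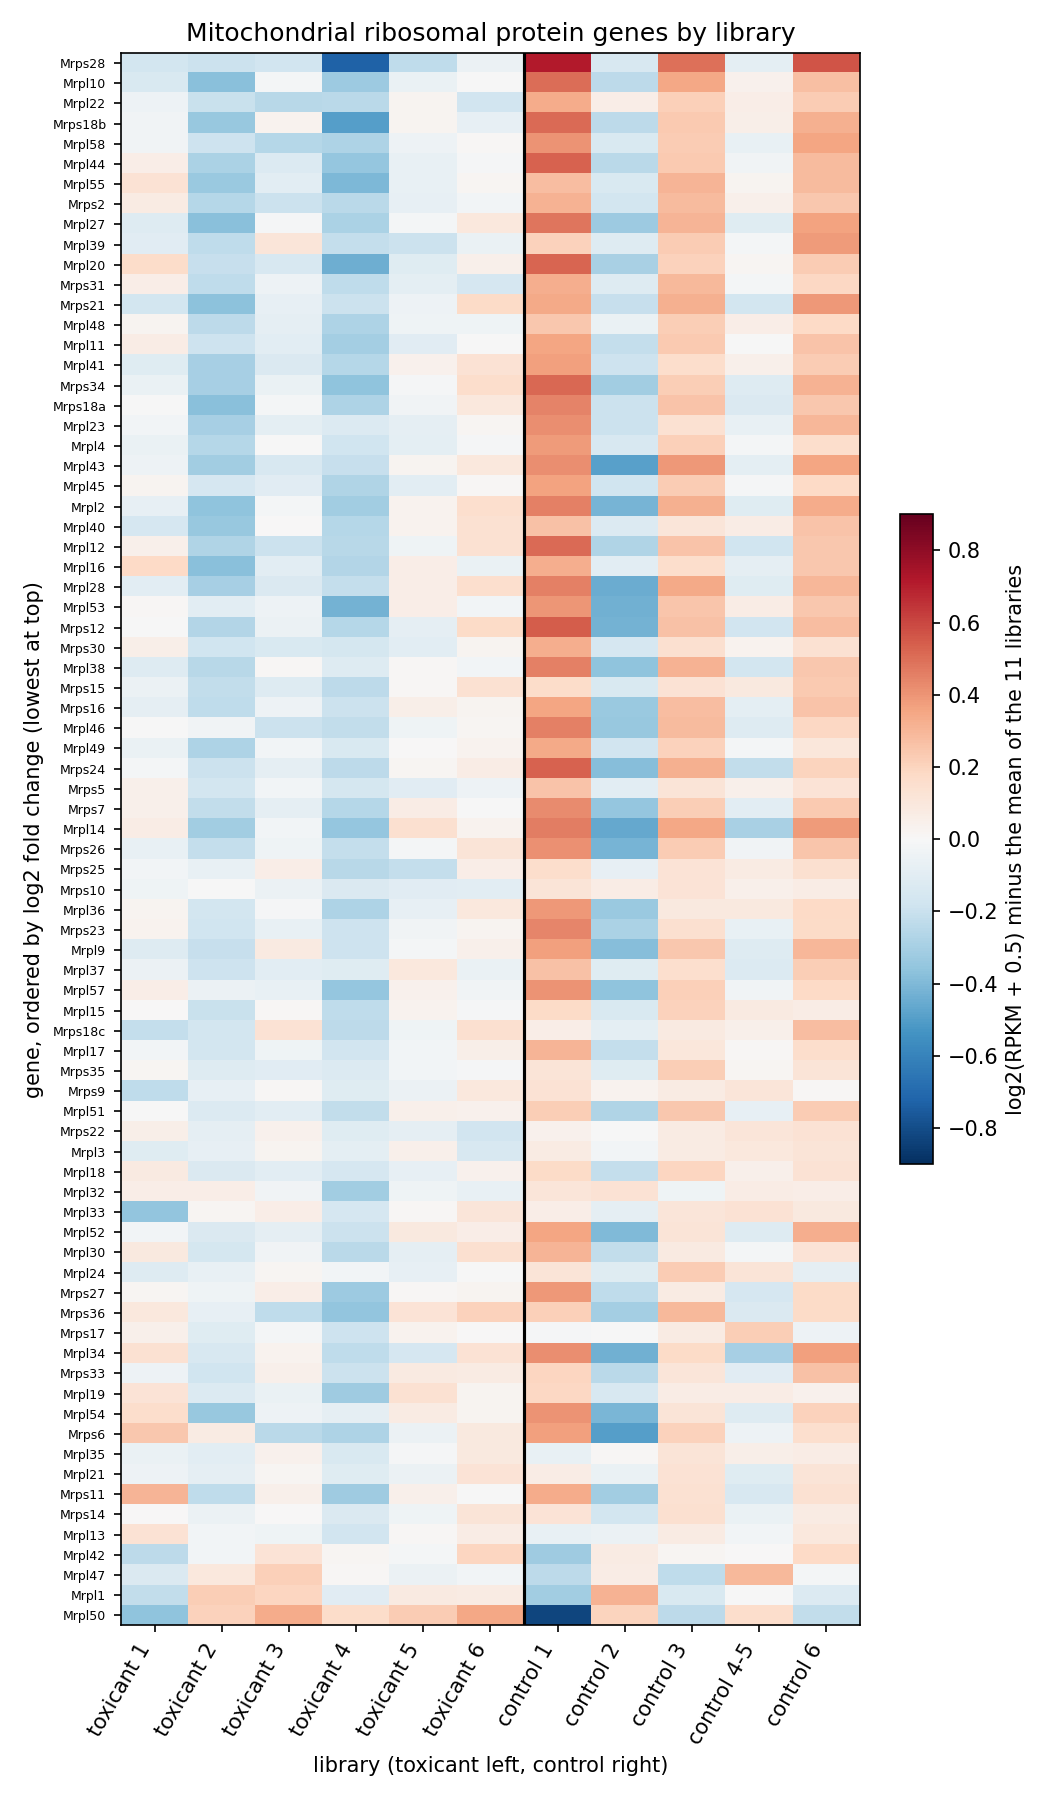
Level of each of the 78 mitochondrial ribosomal protein genes (rows) in the 6 toxicant and 5 control libraries (columns), as log2(RPKM + 0.5) minus the gene's mean over the 11 libraries. Rows are ordered by log2 fold change. Control 1 was the highest of the 11 libraries in 52 genes, and control 2 the lowest control in 66, while Mrpl50 and Mrpl1 at the bottom ran the other way.

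The question for this family was whether the exposure altered its transcript levels. No member passed the threshold. With limma on log2(RPKM + 0.5) across 13493 genes, 0 of 78 members were called lower and 0 higher at a Benjamini-Hochberg adjusted p under 0.05, as were 0% of all genes in either direction. The smallest adjusted p of a member was 0.170 (Mrpl22), and the smallest of any gene was 0.0715. At an unadjusted p under 0.05, 13 members (16.7%) were lower, beside 17.0% of all genes, and 0 were higher, beside 3.33% of all genes. The share of members at that p was near the background share. By direction, 74 of 78 members (94.9%) had a log2 fold change below 0, beside 70.0% of all genes.

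The sizes were small. The median log2 fold change of the 78 was -0.16, with a range of -0.57 to 0.34 and a median SE of 0.11 for a single gene. The median over all genes tested was -0.11, and 58 of 78 members lay below it. The value was -0.16 for the large subunit, where 45 of 49 genes were lower, and -0.16 for the small subunit, where 29 of 29 were. It was also -0.16 for the 48 members with a bacterial homologue, of which 46 were lower, and for the 30 mitochondria-specific members, of which 28 were lower. With median-ratio scaling, which sets the median of all genes at 0.0014, the members' median was -0.034, and 57 of 78 (73.1%) were below 0, beside 49.6% of all genes.

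Mrpl22, whose bacterial homologue lines the exit tunnel for the growing peptide, had the smallest p of the family. It was at 8.02, 7.18, 6.91, 6.94, 8.46 and 7.33 RPKM in toxicant 1 to 6, and at 10.6, 8.67, 9.72, 8.68 and 9.83 RPKM in control 1, 2, 3, 4-5 and 6. Every toxicant library lay below the lowest control. The means were 7.47 ± 0.631 RPKM (SD, n = 6) in toxicant and 9.51 ± 0.831 RPKM (SD, n = 5) in control libraries. This is a difference of -0.33 on the log2 scale with an SE of 0.079 (adjusted p = 0.170 by limma). The gene (ENSMUSG00000020514) lies on chromosome 11 from 58171661 to 58179565 in GRCm38, and 17.3% of the 75-base windows of its transcripts also occur in transcripts of the gene Gm6997 elsewhere, which is not analysed here, so its count is uncertain to that extent.

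Mrps10, the homologue of a bacterial protein in the head of the small subunit, was the other member whose groups did not overlap. It was at 2.05, 2.11, 2.02, 1.89, 1.93 and 1.94 RPKM in toxicant 1 to 6, and at 2.33, 2.24, 2.34, 2.20 and 2.24 RPKM in control 1, 2, 3, 4-5 and 6. Its coefficient of variation was 4.06% in toxicant and 2.71% in control libraries, the lowest in each group among the 26 members named by the rule. Its log2 fold change was -0.15 with an SE of 0.059 (adjusted p = 0.223 by limma), close to the median of the family. Non-overlap with toxicant below control was found in 2 of 78 members (2.56%), beside 2.03% of all genes, and the opposite in 0, beside 0.111%. In 30 members no toxicant library was below the lowest control, and in Mrps28 5 of 6 were.

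Mrps28, a small-subunit protein, had the largest fold change. It was at 6.72, 6.57, 6.70, 4.39, 6.40 and 7.29 RPKM in toxicant 1 to 6, and at 12.8, 6.83, 10.95, 7.12 and 11.5 RPKM in control 1, 2, 3, 4-5 and 6. Controls 1, 3 and 6 were high, and controls 2 and 4-5 lay within or beside the toxicant range. The log2 fold change was -0.57 with an SE of 0.17 (adjusted p = 0.205 by limma). With 783 bases of exon and 170 reads in a library on average, it was the member with the fewest reads.

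Mrpl48, Mrps31 and Mrps2 complete the 6 members with the smallest p among those that were lower. Mrpl48, a mitochondria-specific protein of the large subunit, averaged 4.64 ± 0.426 RPKM in toxicant and 5.56 ± 0.512 RPKM in control libraries (SD, n = 6 and 5), a log2 fold change of -0.24 ± 0.082. Mrps31, mitochondria-specific as well, averaged 3.24 ± 0.296 and 3.96 ± 0.582 RPKM (-0.25 ± 0.094, SE). Mrps2, homologous to a bacterial protein that binds the small subunit late in its assembly, averaged 6.08 ± 0.621 and 7.44 ± 1.06 RPKM (-0.26 ± 0.10). In all of them 3 of 6 toxicant libraries lay under the lowest control, which was control 2.

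**Figure D2:**
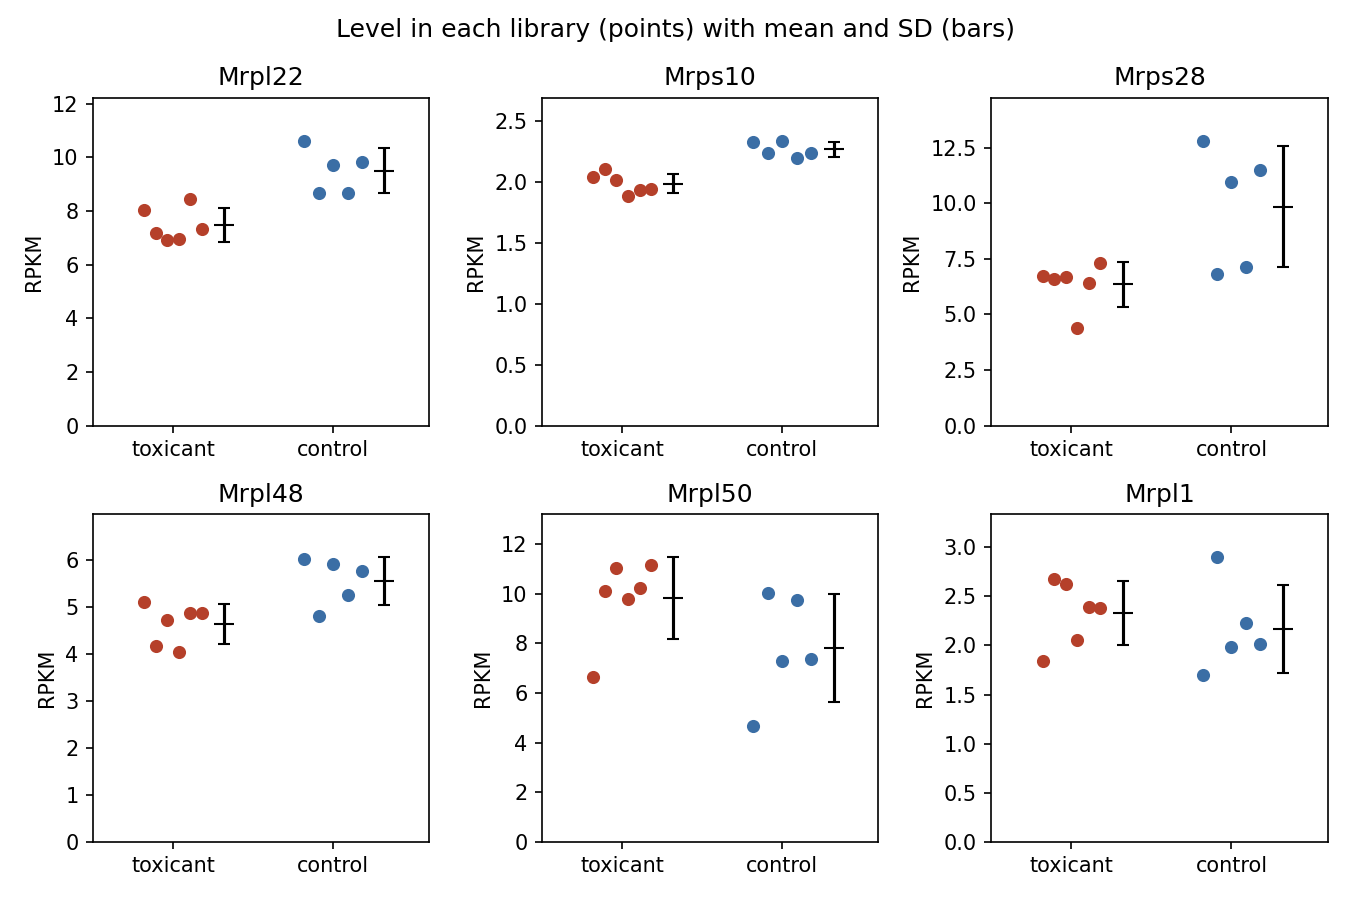
RPKM of 6 mitochondrial ribosomal protein genes in each toxicant (left, n = 6) and control (right, n = 5) library as points, in replicate order, with the mean and SD as bars. Groups were apart in Mrpl22 and Mrps10, while in Mrps28 controls 2 and 4-5 were at 6.83 and 7.12 RPKM, and in Mrpl50 control 1 lay lowest at 4.66 RPKM.

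Only 4 of the 78 members had a log2 fold change above 0, all from the large subunit, and none was past the threshold. Mrpl50, mitochondria-specific, was at 6.63, 10.1, 11.04, 9.78, 10.2 and 11.1 RPKM in toxicant 1 to 6, and at 4.66, 10.02, 7.28, 9.74 and 7.36 RPKM in control 1, 2, 3, 4-5 and 6. In this gene controls 2 and 4-5 were high and controls 1, 3 and 6 low, the reverse of Mrps28, and toxicant 1 was the lowest of its group. Its log2 fold change was 0.34 with an SE of 0.18 (adjusted p = 0.268 by limma). Mrpl1, whose bacterial homologue forms the mobile stalk where spent tRNA leaves, was at 1.84, 2.68, 2.62, 2.05, 2.39 and 2.38 RPKM in toxicant 1 to 6, and at 1.70, 2.90, 1.99, 2.23 and 2.01 RPKM in control 1, 2, 3, 4-5 and 6, with the same controls high as in Mrpl50. The groups overlapped and the log2 fold change was 0.092 ± 0.12 (SE). Mrpl47 averaged 1.93 ± 0.205 RPKM in toxicant and 1.87 ± 0.370 RPKM in control libraries, and Mrpl42 averaged 4.54 ± 0.502 and 4.49 ± 0.608 RPKM, both within 1 SE of no difference.

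Members known for a particular role were lower as well, none past the adjusted threshold. Mrpl12, on the stalk that recruits translation factors, averaged 20.9 ± 2.53 RPKM in toxicant and 24.6 ± 5.56 RPKM in control libraries (SD, n = 6 and 5), and Mrpl11, at the base of that stalk, averaged 7.003 ± 0.686 and 8.35 ± 1.35 RPKM. Mrpl3, near the peptidyl transferase centre, averaged 6.36 ± 0.367 and 6.97 ± 0.273 RPKM, and in 4 of 6 toxicant libraries it was under the lowest control, as was Mrps22. For Mrps22, a small-subunit protein mutated in human mitochondrial disease, the means were 2.64 ± 0.193 and 2.93 ± 0.128 RPKM. These genes had log2 fold changes of -0.21, -0.23, -0.12 and -0.13. The difference between the means was within the SD of the control group for Mrpl12 and Mrpl11, and larger than the SD of either group for Mrpl3 and Mrps22.

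Mrpl44, which carries a ribonuclease III fold, averaged 8.50 ± 0.964 RPKM in toxicant and 10.6 ± 2.25 RPKM in control libraries, a log2 fold change of -0.28 ± 0.13. Mrpl58, a peptidyl-tRNA hydrolase that is an integral part of the large subunit, averaged 6.76 ± 0.624 and 8.44 ± 1.48 RPKM (-0.29 ± 0.11). Mrps34, mitochondria-specific, averaged 15.7 ± 2.15 and 18.7 ± 4.30 RPKM (-0.23 ± 0.15), but 63.4% of its exon bases are shared with Mapk8ip3 on the opposite strand and 37.0% with Nme3, and the strandedness of the counting is not stated. Its value is uncertain for that reason. Mrps30 and Mrps18a carry small-subunit symbols although structures place both proteins in the large subunit. Mrps30 averaged 2.36 ± 0.198 RPKM in toxicant and 2.75 ± 0.393 RPKM in control libraries.

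The 3 paralogues of bacterial S18 occupy different places in the particle. Mrps18a averaged 6.90 ± 0.899 RPKM in toxicant and 8.22 ± 1.63 RPKM in control libraries, a log2 fold change of -0.23 ± 0.13. Mrps18b averaged 5.11 ± 0.807 and 6.58 ± 1.34 RPKM (-0.33 ± 0.14), and Mrps18c 10.03 ± 1.24 and 11.1 ± 1.08 RPKM (-0.14 ± 0.095). None passed the threshold in limma (adjusted p = 0.282, 0.232 and 0.337), and whether the 3 differ from each other was not tested.

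**Figure D3:**
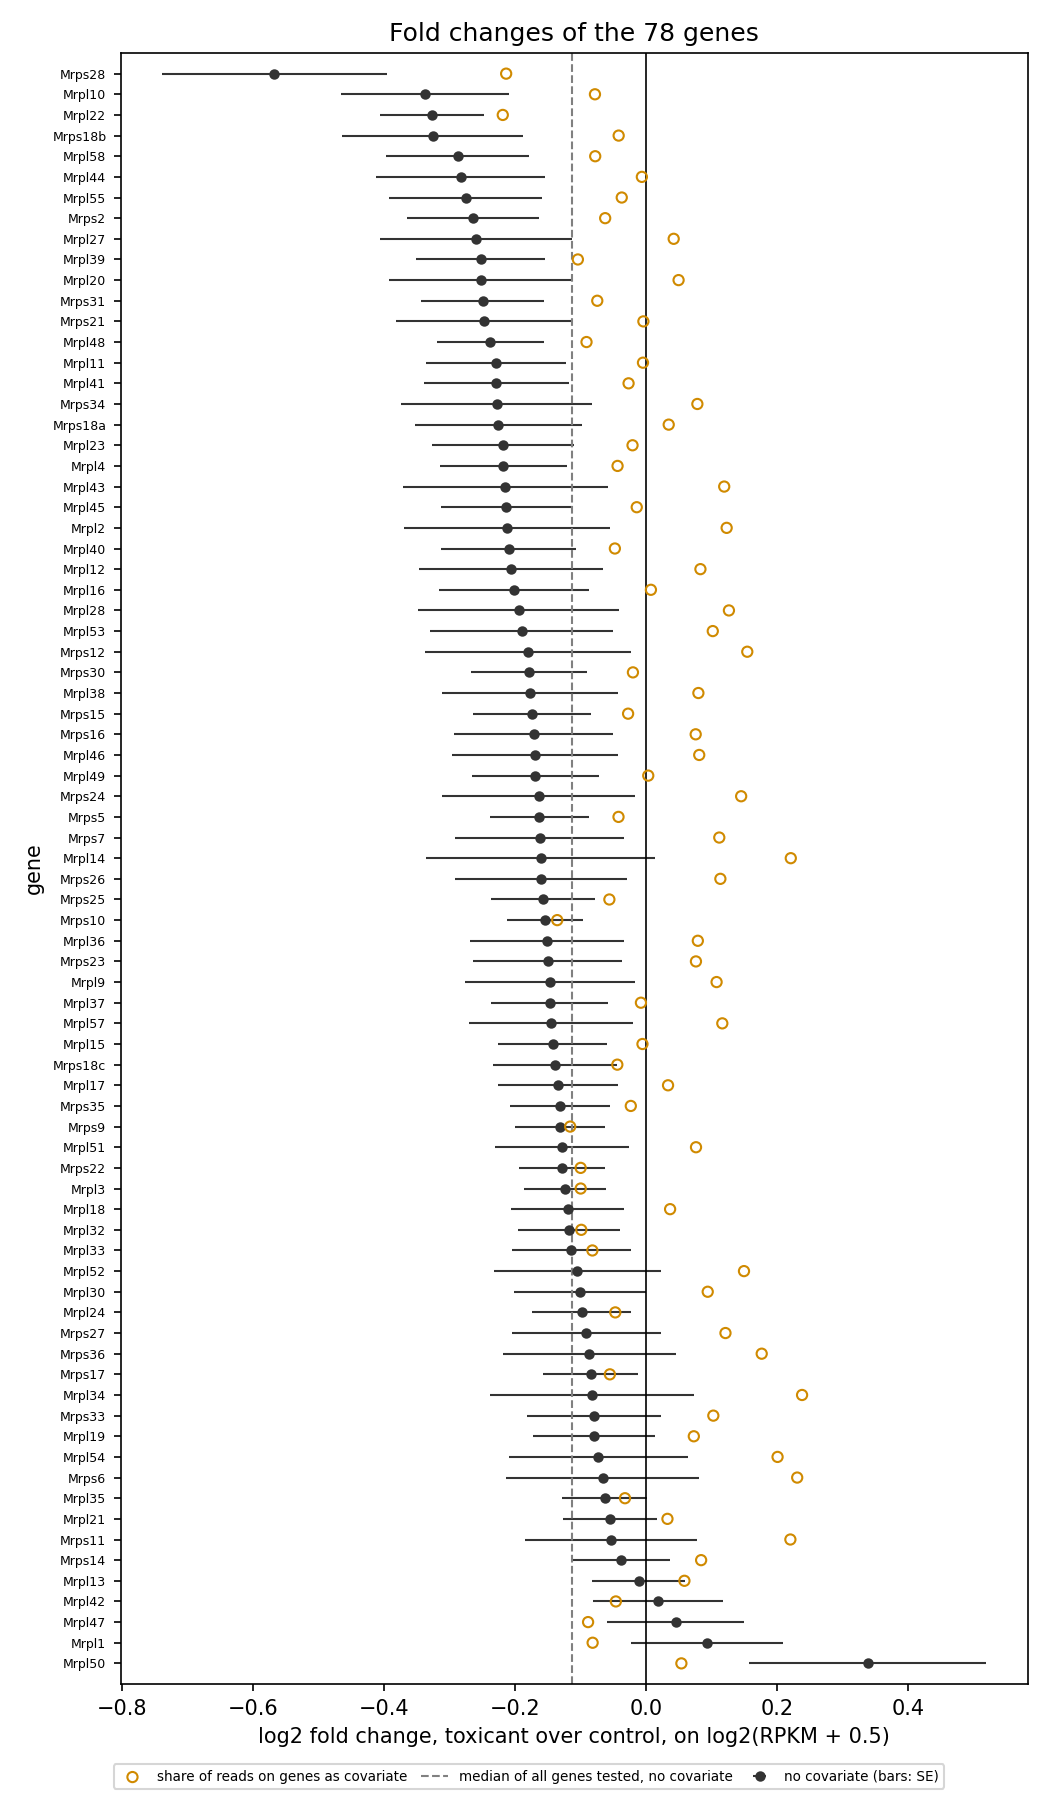
Log2 fold change (toxicant over control, on log2(RPKM + 0.5)) of each of the 78 genes, without a covariate (filled points, bars are the SE) and with the on-gene read share fitted as a covariate (open points). The dashed line is the median of all 13493 genes without a covariate, at -0.11. Filled points of 74 genes lie below 0, and open points are divided into 38 below and 40 above.

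The control libraries fell into high and low ones. The summed RPKM of the 78 genes was 755, 658, 738, 643, 760 and 803 in toxicant 1 to 6 (726 ± 62.6, SD, n = 6), and 986, 641, 895, 740 and 908 in control 1, 2, 3, 4-5 and 6 (834 ± 140, SD, n = 5). Controls 1, 3 and 6 lay above every toxicant library, control 4-5 lay inside the toxicant range, and control 2 was lowest of all 11. In 63 of 78 members controls 1, 3 and 6 were each above both of the others. The toxicant mean was below control 1 in 72 members, below control 3 in 75 and below control 6 in 73, but below control 4-5 in 46 and below control 2 in 14. Within the control group a gene's highest library was a median of 1.505 times its lowest (1.06 to 2.15 times).

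The members' level ran with the on-gene read share, the percentage of a library's reads that fell on genes. RPKM divides by all reads behind the scale, on genes or not. The share thus enters the values of every gene, and how far this relation is arithmetic was not tested. The share was 87.4% to 89.5% in controls 1, 3 and 6, whose sums were 895 to 986 RPKM. It was 76.8% to 83.8% in the 6 toxicant libraries and in controls 2 and 4-5, whose sums were 641 to 803 RPKM. Malat1, a long noncoding RNA retained in the nucleus, ran the other way, with 158 to 339 RPKM in toxicant libraries, 222 and 345 RPKM in controls 4-5 and 2, and 46.0 to 84.6 RPKM in controls 1, 3 and 6. The labels name no batch that would separate these libraries.

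**Figure D4:**
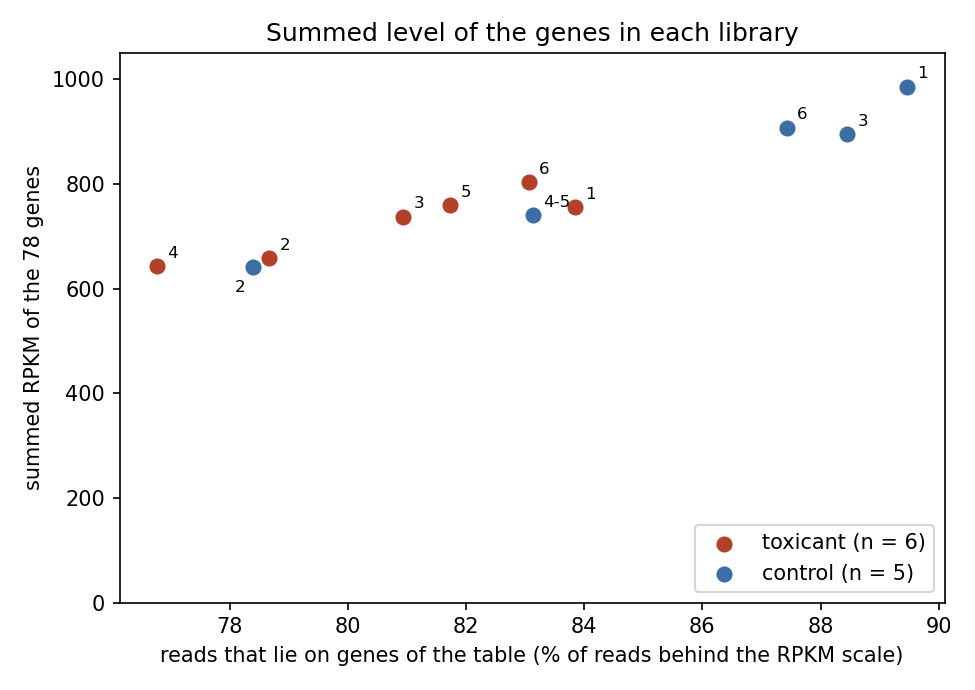
Summed RPKM of the 78 genes in each library against its on-gene read share (in percent), with toxicant libraries (n = 6) and control libraries (n = 5) labelled by replicate. Controls 1, 3 and 6 sit at the upper right, at 895 to 986 RPKM, and controls 2 and 4-5 among the toxicant libraries.

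With that share as a covariate in the limma fit, the members' median log2 fold change was 0.0052, beside -0.034 for all genes, and 38 of 78 (48.7%) were below 0, beside 61.2% of all genes. Of the members, 39 were below 0 without the covariate and above 0 with it. At an unadjusted p under 0.05, 2 members were lower (2.56%, beside 9.13% of all genes), Mrpl22 at -0.22 and Mrps10 at -0.14. These are the members whose groups did not overlap. Another 6 were higher (7.69%, beside 4.34% of all genes), namely Mrpl34 at 0.24, Mrps6 at 0.23, Mrps11 and Mrpl14 at 0.22, Mrpl54 at 0.20 and Mrps36 at 0.18. None of the 8 passed adjustment (smallest limma adjusted p of a member 0.248), and 0% of all genes did in either direction. For Mrpl50 the value was 0.054, and for Mrps28 it was -0.21. The share itself differed between the groups, with means of 80.8% in toxicant and 85.4% in control libraries. A difference tied to the share and one tied to the exposure therefore cannot be told apart in this fit.

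Leaving out control 2 changed the count of calls. Of the 78 members, 31 (39.7%) were then called lower by limma at an adjusted p under 0.05, beside 28.1% of all genes, and 0 were called higher, beside 8.56% of all genes. They were 22 genes of the large and 9 of the small subunit, and the median of all members was -0.25, beside -0.16 over all genes. Mrpl22 had the smallest adjusted p (log2 fold change -0.36, adjusted p = 0.0228), followed by Mrps28 (-0.68, adjusted p = 0.0230). Mrps10, whose groups did not overlap with control 2 included, was not among them (-0.16, adjusted p = 0.0612). Mrps9, Mrps22 and Mrpl3 were not called in that fit either. Leaving out control 1 gave 0 calls in either direction, beside 0% of all genes, and leaving out both gave 0 calls among members, beside 0.0148% of all genes called lower and 0% higher.

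GC content ran with the fold change across the members (Spearman rho = -0.40 over 78 genes) and across all genes (-0.52 over 13488 genes). With the covariate the sign among members turned (0.39). Longer genes had less negative values (rho = 0.28 over members, 0.27 over all genes), and genes of higher RPKM more negative ones (-0.31 over members). With the covariate these signs turned among members too, to -0.44 for length and 0.53 for RPKM. These are descriptions over genes measured in the same 11 libraries, and genes are not independent replicates.

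Some of the members share a start region with another gene. A divergent start was taken as that of a protein-coding gene on the opposite strand, up to 1000 bases upstream or under 200 bases inside. It was found in 23 of 78 members (29.5%), beside 11.4% of the 12525 protein-coding genes tested. Of these neighbouring genes 19 were tested, and 14 had a log2 fold change below 0, where 70.0% of all genes did. Their median was -0.069, beside -0.11 over all genes. The start of Mrpl50 lies 83 bases from that of Zfp189, a zinc finger gene. Zfp189 was at 2.99, 4.98, 5.79, 5.27, 5.36 and 4.89 RPKM in toxicant 1 to 6 and at 2.36, 5.39, 3.31, 5.59 and 3.60 RPKM in control 1, 2, 3, 4-5 and 6. Its libraries had the same high and low controls as Mrpl50, with a log2 fold change of 0.27 ± 0.20 (SE). That order of controls was not particular to the pair: Mrpl1, which has no such neighbour, had the same controls high. With the share covariate Zfp189 was at -0.087 and Mrpl50 at 0.054. Whether the shared start region plays a part was not tested.

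Start regions of 69 members were read from RefSeq (GRCm38.p6), as 75 windows from 250 bases before to 50 bases after a start. The 150 bases before the start are shown for the 2 members whose groups did not overlap, Mrpl22 (chr11:58171514-58171663, plus strand) and Mrps10 (chr17:47369047-47369196, plus strand), and for the 2 with the highest fold change, Mrpl50 (chr4:49521084-49521233, minus strand) and Mrpl1 (chr5:96209965-96210114, plus strand). Each is written 5′ to 3′ on the strand of the gene, and capitals mark a match to the NRF1, ETS or YY1 motif searched.
Mrpl22: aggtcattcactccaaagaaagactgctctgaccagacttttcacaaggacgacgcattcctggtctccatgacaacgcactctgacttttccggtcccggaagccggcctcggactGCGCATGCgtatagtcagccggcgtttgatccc
Mrps10: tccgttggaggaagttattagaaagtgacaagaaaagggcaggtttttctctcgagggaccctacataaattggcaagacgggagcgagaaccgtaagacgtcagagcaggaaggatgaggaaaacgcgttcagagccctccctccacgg
Mrpl50: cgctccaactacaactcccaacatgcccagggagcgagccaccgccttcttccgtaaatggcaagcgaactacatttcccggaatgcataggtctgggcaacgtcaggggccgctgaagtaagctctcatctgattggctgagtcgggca
Mrpl1: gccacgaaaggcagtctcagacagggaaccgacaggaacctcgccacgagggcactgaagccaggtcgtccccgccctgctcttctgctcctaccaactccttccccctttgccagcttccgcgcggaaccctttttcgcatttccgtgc
The stretch of Mrpl22 holds an NRF1 motif in reverse complement, with its first base at -33 from the start, and the other 3 stretches hold none of the 3 motifs.

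NRF1, a transcription factor known for its targets among nuclear genes of mitochondria, was searched as GCATGCGC on both strands and found in 10.7% of the 75 member windows, beside 2.71% of all 32817 windows. The ETS motif CCGGAAGT, bound among others by GABP, was in 16.0% of member windows, beside 3.89%. The YY1 motif AAGATGGCG was in 10.7%, beside 1.40%. For the CCAAT box (CCAAT) the shares were 40.0% and 37.4%, and for the TATA box (TATAAA) 6.67% and 13.6%. The motifs were searched independently and none contains another. A match is a description of the letters in a window, and windows of members with several starts share bases.

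Other genes of mitochondrial translation were set beside the family as lists, and none had a gene past the adjusted threshold. Of 5 mitoribosomal proteins with other symbols, 4 were lower, with a median log2 fold change of -0.22. Among them Dap3, a GTP-binding protein of the small subunit, averaged 7.32 ± 0.515 RPKM in toxicant and 8.72 ± 1.57 RPKM in control libraries (-0.22 ± 0.11). The exception was Ptcd3, an RNA-binding protein of the small subunit, with 4.40 ± 0.684 and 3.70 ± 1.37 RPKM (0.27 ± 0.19), in which controls 2 and 4-5 were the high ones, as in Mrpl50. Chchd1 was at -0.23 ± 0.12.

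Of 15 mitochondrial translation factors, 8 were lower and 7 higher, with a median of -0.074 and 3 lower at an unadjusted p under 0.05 (20.0%, beside 17.0% of all genes). The elongation factor Gfm1 averaged 6.53 ± 0.344 RPKM in toxicant and 7.45 ± 0.491 RPKM in control libraries, and the ribosome recycling factor Mrrf 2.17 ± 0.203 and 2.65 ± 0.370 RPKM (log2 fold changes -0.18 and -0.24). Of 25 assembly factors, 21 were lower with a median of -0.098, and 2 at an unadjusted p under 0.05 (8.0%, beside 17.0% of all genes), the GTPase Mtg1 (-0.29) and the pseudouridine synthase Trub2 (-0.20). Both lists lay nearer to the all-gene median of -0.11 than the mitoribosomal proteins with other symbols did.

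Of 17 mitochondrial aminoacyl-tRNA synthetases, 11 were lower, with a median of -0.027. The value for Lars2, the leucyl-tRNA synthetase, was higher, at 304 ± 55.8 RPKM in toxicant and 216 ± 51.1 RPKM in control libraries (0.50 ± 0.18, adjusted p = 0.219 by limma). Its mean of 264 RPKM was the highest of the list, which had a median level of 2.30 RPKM. In a search for identical letters, no 75-base window of its transcripts was found in transcripts of another gene. Whether all reads counted for Lars2 come from its message was not tested beyond that, so its value is uncertain. Aars2, for alanine, was at -0.25 ± 0.090. Of 14 regulators of mitochondrial transcription and biogenesis, 7 were lower and 7 higher, with a median of 0.00066. The coactivator Ppargc1a averaged 5.45 ± 0.751 and 4.52 ± 0.680 RPKM (0.25 ± 0.11), and the related Pprc1 averaged 2.64 ± 0.168 and 3.03 ± 0.286 RPKM (-0.17 ± 0.073).

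The 15 rRNAs and mRNAs of mitochondrial DNA had a median of -0.065, and 10 were lower. The messages for ATP synthase subunits, mt-Atp8 and mt-Atp6, averaged 5772 ± 383 and 6953 ± 388 RPKM in toxicant, against 7523 ± 938 and 8986 ± 1232 RPKM in control libraries (-0.38 ± 0.12 and -0.36 ± 0.12). The controls of mt-Atp8 had another order than those of most members, at 6698, 8429, 6509, 8517 and 7462 RPKM in control 1, 2, 3, 4-5 and 6. With the share covariate the median of the 15 was -0.29, whereas that of the ribosomal protein genes was 0.0052.

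Cytosolic ribosomal proteins, the counterpart outside mitochondria, were lower in 77 of the 77 tested, with a median of -0.26 and 31 at an unadjusted p under 0.05 (40.3%, beside 17.0% of all genes lower). Rps15a averaged 13.1 ± 0.906 RPKM in toxicant and 16.04 ± 1.47 RPKM in control libraries (-0.28 ± 0.080), and Rps12 averaged 42.3 ± 3.57 and 52.8 ± 5.57 RPKM (-0.31 ± 0.092). With the share covariate the median of this list was -0.026. Many cytosolic ribosomal protein genes have near-identical processed pseudogenes, so single values are uncertain.

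**Figure D5:**
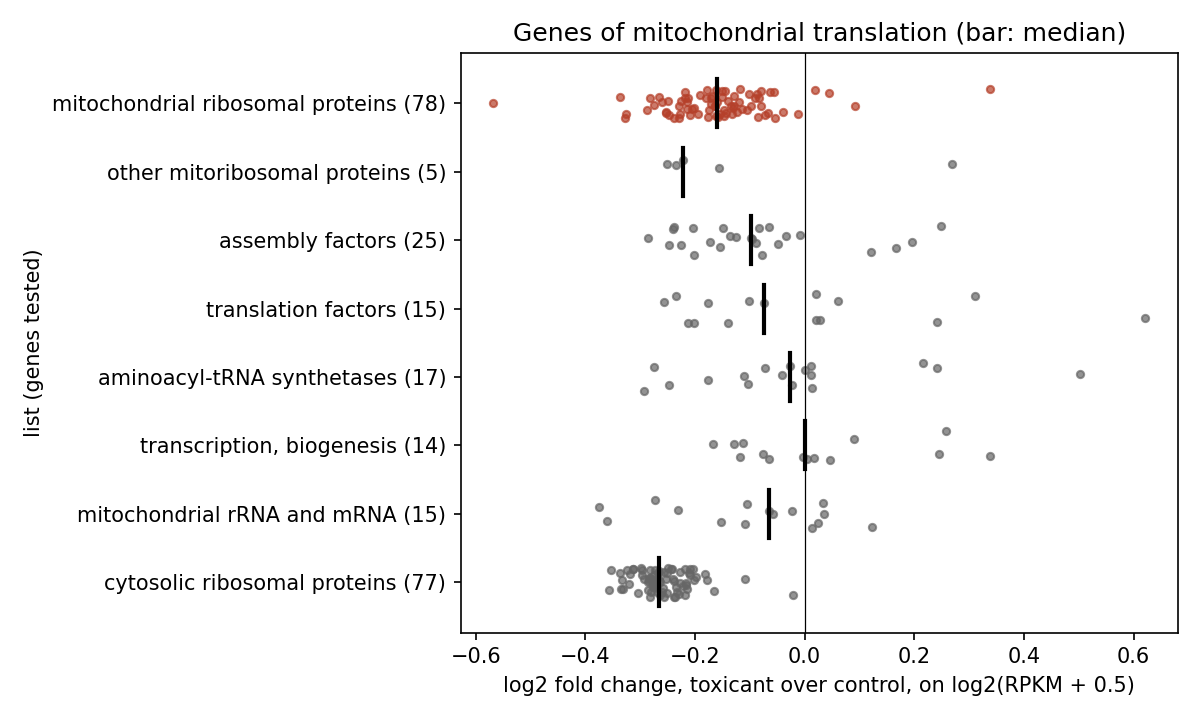
Log2 fold change (toxicant over control) of single genes in the family and in lists of related genes, with the number tested in brackets and the median of each list as a bar. The 78 mitochondrial ribosomal proteins lie around -0.16, the 77 cytosolic ones around -0.26, and the translation factors, synthetases and regulators on both sides of 0.

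Exons of 32 of the 78 members overlap exons of another gene, in 27 with a gene on the opposite strand, and reads there cannot be assigned with certainty since the strandedness is not stated. The overlap was 88.0% of exon bases for Mrpl53 (with Gm42688), 69.8% for Mrps25 (with Nr2c2) and 13.9% for Mrpl47 (with Ndufb5). It was 8.68% for Mrpl48, with the far more abundant Rab6a. Beside Mrpl22, 3 members share more than 10% of their 75-base windows with a gene elsewhere, namely Mrpl27 (15.0%), Mrps18b (12.1%) and Mrps33 (10.3%). No window was shared in this way by Mrps28 or Mrpl50.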

How the data were processed

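Polyadenylated RNA of mouse hippocampi was sequenced as single 75-base reads, per the labels' protocols. The authors deposited 1 table of RPKM values for 41743 genes in 12 libraries, per the file headers. The aligner, counting program, build and annotation behind it have no name in the labels or headers. Positions are those of GENCODE M21 (GRCm38), matched by Ensembl ID (41675 found). Columns were matched to samples by the code in each sample's description. Control 4 and control 5 were identical and entered once, so that 11 libraries were used where the design had named 12 samples.

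The depth was recovered from the RPKM steps and GENCODE exon lengths. Between 98.5% and 98.7% of a library's values were whole within 0.05 reads, which gave 21.5 M to 28.4 M reads in toxicant and 25.0 M to 34.9 M reads in control libraries. Values were analysed as log2(RPKM + 0.5), a scale that understates changes of low genes. The test was limma 3.58.1 under R 4.3.3, on every gene whose mean reached 0.5 RPKM. It used lmFit, eBayes with trend, two-sided p-values and Benjamini-Hochberg adjustment over all genes, with a threshold of 0.05. The procedure was tried on simulated data with independent noise in each gene. The real libraries deviate together across genes, so that trial does not give the error rate in these data. P-values rest on the spread between the libraries of a group.

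Alternatives were other pseudocounts and filters, other scalings, a GC trend removed per library, library weights, a block on the replicate number, the on-gene read share as a covariate, and leaving out each library. Chosen after seeing the data were voom on the recovered reads and leaving out control 1 and control 2 together. The members and gene lists were chosen with earlier results of these data known. Members named with values are the 6 with the smallest p among those lower, the 4 with the smallest p among those higher, the 3 highest and 3 lowest in level, and 13 fixed by name. From each list the 2 genes with the smallest p are named. Ptcd3, Zfp189 and members listed by count were added where a count or an overlap turned on them, and Malat1 was added beside the on-gene read share. RefSeq windows were missing for 9 members. The list symbol Mtrfr was not matched, and 77 of 80 cytosolic ribosomal proteins passed the filter.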

Additional observations from a re-analysis of the deposited data

Results flagged for a closer look

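In 54 groups of libraries tested for a value apart from the rest of its group (the 26 named members and the summed levels), 2 held one by Dixon's criterion, and chance gives about 1 in 20. Mrpl50 was at 6.63 RPKM in toxicant 1, with the other 5 toxicant libraries between 9.78 and 11.1 RPKM, and the gap was 0.699 of the group's range against a critical value of 0.625. Mrps28 was at 4.39 RPKM in toxicant 4, with the other 5 between 6.40 and 7.29 RPKM, and the gap was 0.693 of the range. Without toxicant 1 the log2 fold change of Mrpl50 was 0.44, and without toxicant 4 that of Mrps28 was -0.47.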

How the results depend on the processing

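Direction held for the family without a covariate: the members' median log2 fold change lay between -0.25 and -0.11 when each library was left out in turn. It was -0.034 with median-ratio scaling and 0.0052 with the share covariate. The number of members called lower in limma was 0 in each alternative except library weights (62, with 2 called higher, Mrpl50 and Mrpl1, beside 49.6% of all genes lower and 21.2% higher) and leave-one-out fits, where it ran from 0 to 31 and the 31 came from leaving out control 2. Those leaving-out fits called 0 higher. At an adjusted threshold of 0.1, 0 members were called lower and 0 higher, beside 0.0741% and 0.00741% of all genes.

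At an unadjusted p under 0.05 the number lower, 13 as reported (16.7%, beside 17.0% of all genes), is set beside the share over all genes under each setting. It was 5 with the GC trend removed (6.41%, beside 7.42% of all genes), 3 with median-ratio scaling (3.85%, beside 5.13%), 4 with quantile normalization (5.13%, beside 8.69%), 2 with the share covariate (2.56%, beside 9.13%) and 12 with voom (15.4%, beside 16.5%). It was 64 with library weights (82.1%, beside 51.1%) and 28 without controls 1 and 2 (35.9%, beside 28.4%). Over single libraries left out it ran from 5 to 53, at 5 without control 1 or control 3 (6.41%, beside 9.68% and 8.58% of all genes), 6 without control 6 (7.69%, beside 10.5%), 8 without toxicant 2 (10.3%, beside 11.9%), 20 without toxicant 6 (25.6%, beside 15.9%) and 53 without control 2 (67.9%, beside 40.0%). The number higher, 0 as reported (beside 3.33% of all genes), was 1 (1.28%) with the GC trend removed, with median-ratio scaling and with quantile normalization (beside 7.05%, 8.23% and 6.30%), 2 with library weights (2.56%, beside 22.1%), 6 with the share covariate (7.69%, beside 4.34%), and 0 to 1 over single libraries left out (beside 1.12% to 12.8%). The replicate number as a block gave 30 lower (38.5%, beside 26.7% of all genes), 1 higher (1.28%, beside 7.89%) and 0 adjusted calls (beside 0%). The correlation of same-numbered libraries' deviations was 0.62, 0.28, -0.30, 0.32 and 0.27. As it was not above 0.1 in every pair and no label names a shared litter or day, the numbers were not taken as a pairing, and only toxicant 1 was the best partner of its own number.

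Among the named members, signs reversed with the share covariate for Mrpl1 (-0.082), Mrpl12 (0.083), Mrpl42 (-0.046), Mrpl47 (-0.089), Mrps12 (0.15), Mrps18a (0.034) and Mrps34 (0.078). With the GC trend removed they did for Mrpl1 (-0.068) and Mrpl42 (-0.072), with library weights for Mrpl42 (-0.10), without controls 1 and 2 for Mrpl42 (-0.056), and with 12 libraries for Mrpl47 (-0.0080). With single libraries left out Mrpl42 ran from -0.059 to 0.067 and Mrpl47 from -0.0083 to 0.12. The cause of these changes was not tested. With 11 libraries and 170 to 1291 reads a gene, the coefficient of variation between libraries was a median of 2.26 times that of counting in the toxicant and 3.63 times in the control group.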
